A study of Mus musculus with 22 samples.

Results

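The genes described here form the ion transport machinery among the transcripts that carried ac4C peaks in mouse kidney. They are pumps that spend ATP to move ions, ion channels, aquaporins, claudins and the WNK kinases that set channel and transporter activity. Members were chosen by gene name alone, from the prefixes of these families in the gene name column of the deposited peak table. The rule took 118 of 9857 peaks and 60 of 4909 gene names. Overlapping peaks were often listed more than once, so the 118 peaks formed 84 groups of overlapping peaks against 6547 in the whole table. Of these 84 groups, 34 held a peak from both genotypes' peak lists, 27 came from the db/db list alone and 23 from the db/m list alone.

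The study compared kidneys of male db/db mice with those of db/m mice by ac4C RNA immunoprecipitation sequencing (acRIP-seq) and by RNA-seq. db/db mice lack a working leptin receptor in all tissues and become obese and diabetic, and db/m mice, which are heterozygous for the mutation, are the nondiabetic control. There were 6 db/db and 5 db/m animals, and each gave 1 immunoprecipitated (IP) library and 1 RNA-seq library, so 22 libraries in all. No treatment is given for these animals in the labels, and the age at which the kidneys were taken is not given in the sources used here. For the IP, polyadenylated RNA was cut into short fragments and pulled down with an antibody to N4-acetylcytidine (ac4C), the base modification that the enzyme NAT10 writes. Whole kidney was used, so fewer cells of a type and less RNA per cell cannot be told apart. Nothing in the labels says more of how the animals were housed or paired, and the p-values measure the spread between these animals.

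Each peak was measured by its reads in IP and in RNA-seq, given below as CPM, counts scaled to the same number of reads in peaks in every library, after TMM normalization. Reads in peaks ran from 7577171 to 9862426 in the db/db IP libraries and from 9125099 to 10293757 in the db/m IP libraries. In RNA-seq they ran from 3160992 to 3352535 and from 3151035 to 3265239. The members took 1.01% to 1.42% of IP reads in db/db and 0.924% to 1.18% in db/m. Their share of RNA-seq reads was 1.45% to 1.98% in db/db and 1.31% to 1.56% in db/m. A count of 0 allowed a level of up to 0.362 CPM in IP and 0.981 CPM in RNA-seq, on 3 counts and for counting error only.

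In kidney tubules, the Na,K-ATPase of the basolateral membrane keeps cell sodium low, and channels, exchangers and tight junction claudins then let sodium, chloride and potassium follow their gradients. Water follows through aquaporins. Aquaporin 1 serves the proximal tubule and thin descending limb, while aquaporins 2, 3 and 4 serve the principal cells of the collecting duct, where vasopressin moves aquaporin 2 to the apical membrane. Intercalated cells of the same duct secrete acid through a V-ATPase. Polycystin 2, a cation channel of the primary cilium, is known for its loss in polycystic kidney disease.

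The tissue label fitted the defining markers. The podocyte gene Nphs1, the proximal tubule genes Lrp2 and Slc5a2 and the thick ascending limb transporter Slc12a1 all had peaks with reads in both genotypes. 1 animal stood apart among the members, db/m animal 2. Among well-read peaks, those with 10 or more RNA-seq reads per library on average, members held 54 distinct positions. There it was the highest or the lowest of the db/m animals in 79.6% in IP and in 79.6% in RNA-seq. Over all well-read peaks these shares were 64.9% and 71.7%. The other db/m animals were at an extreme of the members in at most 50%. The fits were repeated without this animal, and those values are given beside the results that it moved most.

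Only part of the family was well covered. Of the 118 peaks, 60 were well read (50.8%), in 26 of the 60 genes, against 68.2% of all peaks. The other 34 genes had none. They include all 6 voltage-gated calcium channel genes, both TRP channel genes and 12 of the 14 genes under a potassium channel prefix. The authors' own peak false discovery rate was above 0.05 in 32 member peaks (27.1%, against 15.5% of all peaks), and all 32 lay under 10 RNA-seq reads. 2 names match the prefixes only by spelling. Kcnq1ot1 is an antisense RNA of the Kcnq1 locus and Pkdcc is a kinase rather than a polycystin. From a list of 48 pump, channel and aquaporin genes known in kidney, 21 had a peak, and the other 27, Umod, Kcnj1 and Scnn1b among them, were not analysed here.

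Between genotypes, a short list of members moved. Aqp2, the vasopressin-regulated water channel, rose in db/db kidneys in both IP and RNA-seq. Cldn2, a claudin of the proximal tubule, rose by less in both. Aqp4 and Kcnh4 fell in RNA-seq, and Clcn2 and Kcnh1 fell in IP. A peak was called at a Benjamini-Hochberg adjusted p under 0.05 over all 9857 peaks in edgeR's quasi-likelihood test with an absolute log2 fold change over 1.

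In IP, 4 member peaks were called (3.39%), and 3.32% of all peaks were. The 2 higher in db/db, Aqp2 among them, made 1.69% of members against 1.59% of all peaks, and the 2 lower, Clcn2 and Kcnh1, made 1.69% against 1.72%. By the adjusted p alone 9 member peaks passed (7.63%, all peaks 6.45%), 6 of them higher (5.08%, all peaks 3.07%) and 3 lower (2.54%, all peaks 3.38%). In RNA-seq, 5 member peaks were called (4.24%, all peaks 3.95%). Of these, 3 were higher (2.54%, all peaks 1.98%) and 2 lower (1.69%, all peaks 1.97%). By the adjusted p alone 10 passed (8.47%, all peaks 11.3%), with 8 higher (6.78%, all peaks 5.34%) and 2 lower (1.69%, all peaks 5.93%). The shares of called peaks lay near those of the whole table, while by the adjusted p alone the share downward in RNA-seq lay below it and the share upward in IP above it. Those differences in share were not tested. The median log2 fold change of the members was 0.06 in IP and 0.00 in RNA-seq, beside 0.00 and -0.01 over all peaks.

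**Figure D1:**
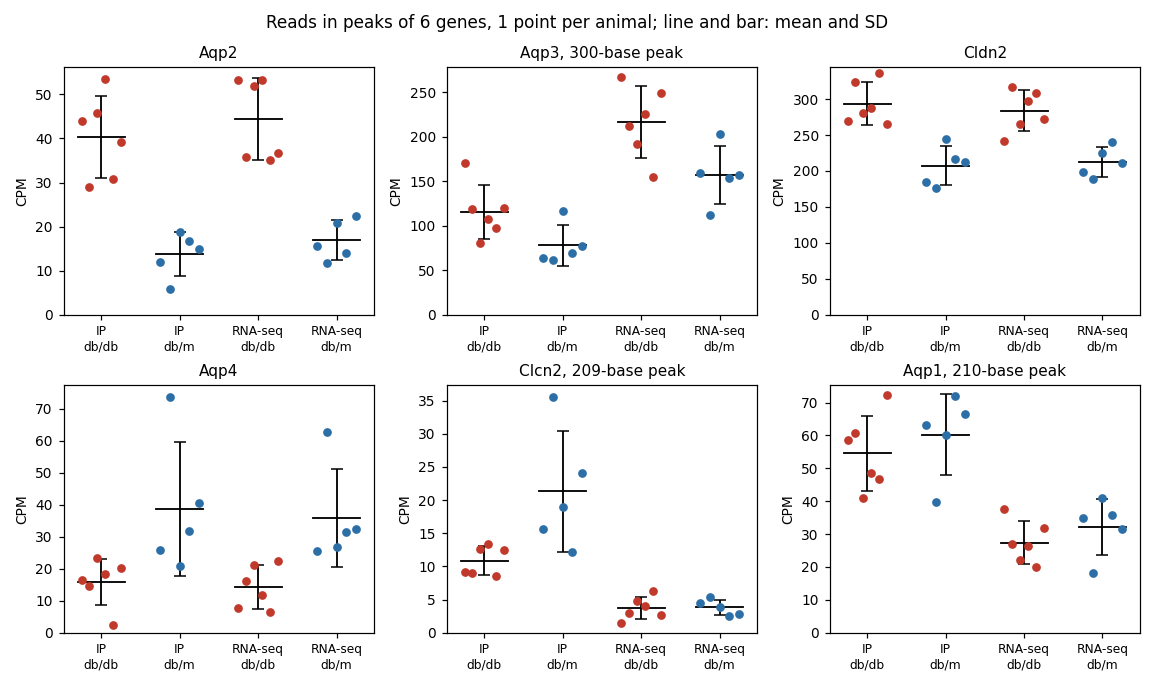
CPM in 6 peaks of 6 genes, with 1 point per animal (6 db/db in red, 5 db/m in blue), for IP and RNA-seq, and the mean and SD as line and bar on linear axes from 0. The genotypes do not overlap in both IP and RNA-seq for Aqp2 and Cldn2, and in RNA-seq alone for Aqp4, while the Clcn2, Aqp3 and Aqp1 peaks overlap in both.

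3 promoters are shown because their genes sit at the head of the results or next to them in the same cells. Aqp2 and Aqp3 share the principal cell but differed in their calls, and Cldn2 stood higher in every db/db animal than in any db/m animal. The 250 bases before each gene start are those of RefSeq on GRCm38.p6, written 5′ to 3′ on the gene's own strand. Capitals mark matches on either strand. The letters searched were TATAAA of the TATA box, CANNTG of the E-box, TGANTCA known from AP-1 sites, TGACG from the core of the cyclic AMP response element, and AGATAA known from binding sites of GATA factors. They lie at chr15:99578806-99579055 (+ strand) for Aqp2, chr4:41098184-41098433 (- strand) for Aqp3 and chrX:139800558-139800807 (+ strand) for Cldn2.
Aqp2: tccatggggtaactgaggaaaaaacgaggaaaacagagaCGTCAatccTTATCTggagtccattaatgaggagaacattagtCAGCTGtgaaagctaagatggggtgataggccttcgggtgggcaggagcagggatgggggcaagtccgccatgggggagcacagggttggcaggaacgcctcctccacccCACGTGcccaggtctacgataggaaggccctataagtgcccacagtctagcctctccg
Aqp3: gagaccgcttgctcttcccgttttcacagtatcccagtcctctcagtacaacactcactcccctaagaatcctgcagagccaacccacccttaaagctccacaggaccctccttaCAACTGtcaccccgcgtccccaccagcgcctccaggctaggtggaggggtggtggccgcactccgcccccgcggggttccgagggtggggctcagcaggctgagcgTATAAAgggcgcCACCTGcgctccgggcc
Cldn2: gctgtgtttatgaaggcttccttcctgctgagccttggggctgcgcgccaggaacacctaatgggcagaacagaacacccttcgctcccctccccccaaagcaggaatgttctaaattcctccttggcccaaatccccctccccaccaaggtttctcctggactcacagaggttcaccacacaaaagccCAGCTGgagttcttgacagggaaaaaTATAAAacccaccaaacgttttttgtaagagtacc
The Aqp2 stretch held 2 matches to CANNTG, 1 to TGACG and 1 to AGATAA. The Aqp3 stretch held 1 TATAAA and 2 CANNTG matches, and the Cldn2 stretch 1 of each. None of the 3 held TGANTCA. Of all 32851 promoters of this length, 66.2% held CANNTG, 17.8% TGACG, 12.4% TATAAA, 9.99% AGATAA and 6.75% TGANTCA, so the E-box letters are common. A match describes the letters only. Promoters were available for 47 of the 60 genes.

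Aqp2 encodes the water channel that vasopressin inserts into the apical membrane of principal cells. Its only peak, chr15:99584309-99584398 (+ strand, ENSMUSG00000023013), spanned 90 bases at 96.5% of the way from the gene's 5′ to its 3′ end and came from the db/db list. IP values were 44.0, 28.9, 45.8, 53.4, 30.9 and 39.1 CPM in the db/db animals and 12.0, 5.94, 18.7, 16.8 and 15.0 CPM in the db/m animals. The lowest db/db animal stood above the highest db/m animal. The means were 40.3 ± 9.31 (SD, n = 6) and 13.7 ± 4.97 (SD, n = 5), a log2 fold change of 1.56 (SE 0.27, edgeR adjusted p = 0.00132, exact permutation p = 0.00216). RNA-seq gave 53.3, 35.7, 52.0, 53.3, 35.1 and 36.7 CPM in db/db against 15.7, 11.7, 20.9, 14.0 and 22.5 CPM in db/m. The groups again did not overlap. The RNA-seq log2 fold change was 1.38 (SE 0.19, edgeR adjusted p = 7.8e-05, exact permutation p = 0.00216). The value 0.00216 is the smallest that 462 splits of 11 animals can give, two-sided. Leaving out any 1 animal moved the log2 fold change to values from 1.37 to 1.73 in IP and from 1.28 to 1.51 in RNA-seq. Reads of this peak may also belong to Gm34765, which overlaps it, since the sources used here do not say whether counting used strand.

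Aqp3, the basolateral water and glycerol channel of the same cells, was higher on average but did not pass in edgeR. Its 300-base peak, chr4:41093111-41093410, had 116 ± 30.6 CPM in db/db and 77.8 ± 22.7 CPM in db/m IP (log2 fold change 0.57, edgeR adjusted p = 0.116). RNA-seq gave 217 ± 40.1 and 157 ± 32.5 CPM (0.47, edgeR adjusted p = 0.0611), which passed in DESeq2 (adjusted p = 0.04). With animals left out in turn, the edgeR adjusted p ran from 0.0266 to 0.237 in IP and from 0.0245 to 0.137 in RNA-seq. The list of 6 principal cell markers had peaks in Aqp2 and Aqp3 only, while Fxyd4, Hsd11b2, Scnn1b and Scnn1g were not analysed here. Its summed IP level, mostly Aqp3, was 126 to 214 CPM in db/db and 67.2 to 136 CPM in db/m. Its RNA-seq sum was 190 to 320 CPM against 123 to 224 CPM. A list of 6 endothelial markers had peaks in 4 genes, with Plvap the most abundant. It summed in RNA-seq to 409 to 739 CPM in db/db and 306 to 398 CPM in db/m. The IP sums were 333 to 539 CPM and 225 to 352 CPM. Of its 9 peaks, 4 passed upward in edgeR in IP and in RNA-seq, all of Plvap, and 0 downward. Their median log2 fold change was 0.02 in IP and 0.79 in RNA-seq. The Kdr peaks of this list lay lower in db/db without passing, at -0.27 and -0.24 in IP and -0.4 and -0.39 in RNA-seq. How far the number of principal or endothelial cells takes part in the Aqp2 difference was not tested.

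Aqp4, a water channel of the basolateral membrane of principal cells, ran the other way. Its 61-base peak, chr18:15393459-15393519 (ENSMUSG00000024411, db/m list), had RNA-seq values of 7.83, 16.2, 21.1, 11.9, 6.32 and 22.4 CPM in db/db and 25.7, 62.7, 26.8, 31.6 and 32.3 CPM in db/m. No db/db animal reached the lowest db/m animal. RNA-seq levels fell by 1.32 on the log2 scale (SE 0.30, edgeR adjusted p = 0.00594, exact permutation p = 0.00649). IP values were 16.4, 14.5, 23.3, 18.4, 2.46 and 20.2 CPM against 25.9, 73.8, 21.0, 31.8 and 40.5 CPM. Here db/db animal 3 stood above db/m animal 3, so the groups overlapped, and the IP log2 fold change of -1.28 (SE 0.41) did not pass (edgeR adjusted p = 0.0705). db/m animal 2 was the highest in both. Without it the log2 fold change was -0.91 in IP and -1.01 in RNA-seq, where it still passed (edgeR adjusted p = 0.0124). The RefSeq gene A830021F12Rik overlaps this peak.

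The 2 other aquaporins with reads did not pass. Aqp1, the constitutive water channel of the proximal tubule, had 54.6 CPM in db/db and 60.2 CPM in db/m in its most-read IP peak, chr6:55348286-55348495 (log2 fold change -0.14, edgeR adjusted p = 0.75). Its RNA-seq log2 fold change was -0.23 (edgeR adjusted p = 0.5). The 2 values without db/m animal 2 were -0.26 and -0.38. Aqp7, a glycerol channel of the late proximal tubule, had 17.6 and 13.8 CPM in IP at chr4:41033788-41033937 (0.34, edgeR adjusted p = 0.521, and 0.19 without db/m animal 2). Its RNA-seq levels were 22.4 and 23.0 CPM.

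Clcn2, a widely expressed chloride channel that opens on hyperpolarization, had the widest gap between its IP and RNA-seq fold changes among well-read members, a gap that did not pass when tested itself (edgeR adjusted p = 0.632). Its 209-base peak, chr16:20715909-20716117 (- strand, ENSMUSG00000022843, db/m list), had IP values of 9.18, 8.98, 12.6, 13.4, 8.6 and 12.5 CPM in db/db. In db/m they were 15.7, 35.6, 18.9, 12.2 and 24.1 CPM, so db/m animal 4 lay within the db/db values. IP levels fell by 0.97 on the log2 scale (SE 0.28, edgeR adjusted p = 0.0476, exact permutation p = 0.00866). RNA-seq levels were 3.75 CPM and 3.84 CPM (-0.04, edgeR adjusted p = 0.948), from a mean of 12.2 reads. A 120-base peak inside it, chr16:20715998-20716117, from the db/db list, shares its reads and was called (IP log2 fold change -1.04, SE 0.29, edgeR adjusted p = 0.0421). This call was lost in 7 of the 11 fits that left out an animal, and without db/m animal 2 its log2 fold change was -0.77 (edgeR adjusted p = 0.125). The 209-base peak without that animal stood at -0.70 (edgeR adjusted p = 0.145).

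Cldn2 encodes the claudin that forms the cation- and water-permeable tight junction of the proximal tubule. Its 300-base peak, chrX:139809380-139809679 (ENSMUSG00000047230), stood at the same position in both lists. IP values were 269, 324, 281, 288, 336 and 265 CPM in db/db and 185, 176, 244, 217 and 213 CPM in db/m. Every db/db animal lay above every db/m animal. The log2 fold change was 0.51 (SE 0.13, edgeR adjusted p = 0.0259, exact permutation p = 0.00216). RNA-seq levels were 284 ± 28.8 CPM and 213 ± 20.6 CPM (0.42, SE 0.11, edgeR adjusted p = 0.0181). With animals left out in turn the edgeR adjusted p reached 0.0629 in IP and 0.0512 in RNA-seq. Without db/m animal 2 the IP log2 fold change of 0.45 did not pass (edgeR adjusted p = 0.0525). Other proximal tubule genes passed in the other direction: Lrp2, the endocytic receptor megalin, fell by 0.92 on the log2 scale in IP at its peak chr2:69436644-69437532 (edgeR adjusted p = 0.00478). The other 2 claudin genes, Cldn15 and Cldn18, had under 1 RNA-seq read per library on average.

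Atp1b1, the beta subunit that carries the Na,K-ATPase to the membrane, did not pass at chr1:164453747-164458057, with 641 CPM in db/db against 584 CPM in db/m in IP (log2 fold change 0.13, edgeR adjusted p = 0.664).

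**Figure D2:**
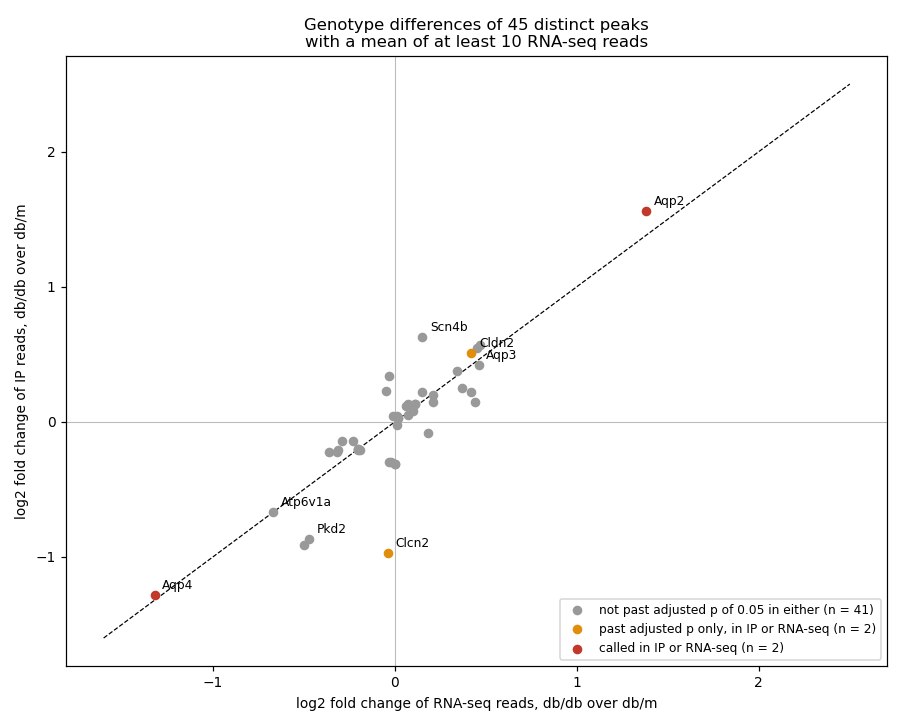
Log2 fold change of db/db over db/m in RNA-seq (horizontal) and in IP (vertical) for 45 of the 54 distinct well-read member peaks, with a dashed line where both are equal. Grey points (41) passed in neither, orange points (2) passed the adjusted p alone and red points (2) were called in IP or RNA-seq; the points follow the dashed line, and Clcn2 lies farthest below it.

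No member peak was called when IP was set against RNA-seq of the same animals. That fit used all 22 libraries with the animal as a block and asked whether the IP difference between genotypes exceeded the RNA-seq difference. In edgeR's quasi-likelihood test 0 member peaks were called and 0 passed the adjusted p, where 0.0203% and 0.0304% of all peaks did. At an unadjusted p under 0.05 there were 7 member peaks (5.93%, against 6.76% of all peaks), in Clcn2, Atp2a2, Kcnq1ot1, Scn4b and Wnk1. DESeq2 and limma also called 0. For Clcn2 the log2 difference was -0.86 (unadjusted p = 0.0229, edgeR adjusted p = 0.632) and for Aqp2 0.22 (edgeR adjusted p = 0.879). Among the 60 peaks with reads, 51 had the same sign in IP and RNA-seq (85.0%, against 81.6% of all such peaks). The IP and RNA-seq libraries come from the same animals, so this share is a description. The median absolute difference was 0.10, beside 0.12 over all such peaks.

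The genotypes did not overlap in 5 member peaks in IP (4.24%, against 5.77% of all peaks), Aqp2 and Cldn2 among them. In RNA-seq they did not overlap in 10 (8.47%, against 7.89% of all peaks), Aqp2, Aqp4, Cldn2 and Kcnh4 among them. Spread between animals was much like that of other peaks. The median coefficient of variation of well-read members was 19.8% in db/db IP and 21.6% in db/m IP, beside 23.2% and 21.8% over all such peaks. In RNA-seq it was 17.3% and 15.7%, beside 19.0% and 16.5%.

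Sodium channels and the WNK kinases did not pass in edgeR's quasi-likelihood test in IP or RNA-seq. Scnn1a, the alpha subunit of the epithelial sodium channel ENaC, had 463 ± 87.6 CPM in db/db and 388 ± 108 CPM in db/m in IP at chr6:125321258-125321725 (0.25, edgeR adjusted p = 0.451). Its RNA-seq levels were 191 ± 27.2 and 148 ± 20 CPM (0.37, edgeR adjusted p = 0.0732, DESeq2 adjusted p = 0.0337). Without db/m animal 2 the log2 fold change was 0.43 in IP (edgeR adjusted p = 0.12) and 0.43 in RNA-seq, where it passed (edgeR adjusted p = 0.0444). Scn4b, the beta subunit of a voltage-gated sodium channel, had 25 and 16.2 CPM in IP at chr9:45153406-45153615 (0.63, edgeR adjusted p = 0.227) and an RNA-seq log2 fold change of 0.15. Wnk4, a kinase that regulates the thiazide-sensitive cotransporter, had 245 ± 59.9 and 189 ± 49.2 CPM in IP at chr11:101276078-101276316 (0.38, edgeR adjusted p = 0.304, and 0.24 without db/m animal 2). Wnk1, a kinase that senses chloride, lay slightly lower at chr6:119925046-119925346, at 264 ± 64.6 and 306 ± 41.1 CPM (-0.21, edgeR adjusted p = 0.541). Of the 11 peaks of the 4 WNK genes, 2 in IP (18.2%, all peaks 21.2%) and 3 in RNA-seq (27.3%, all peaks 24.5%) had an unadjusted p under 0.05, and 0 passed in DESeq2.

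Potassium channels split into a well-read pair and a long tail. Kcnj15 and Kcnj16, inward rectifiers of the basolateral membrane, had a mean of 1030 and 692 RNA-seq reads in their most-read peaks. Kcnj15 at chr16:95298557-95298826 had an IP log2 fold change of -0.20 (edgeR adjusted p = 0.426) and Kcnj16 at chr11:111026477-111026686 one of 0.12 (edgeR adjusted p = 0.718, and 0.05 without db/m animal 2). The other 12 genes under the prefix had under 10 RNA-seq reads in every peak.

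2 of these low-read genes were called and rest on few reads. Kcnh1 at chr1:192505701-192505761, a voltage-gated potassium channel known from brain, had IP counts of 0, 0, 0, 0, 1 and 0 reads in db/db and 1, 26, 1, 1 and 7 reads in db/m. Most of the 36 db/m reads came from animal 2. The ratio of the db/m to the db/db level was 41.2 (exact 95% interval 6.93 to 1670, counting error only), the edgeR adjusted p was 0.0478, and the call was lost in 8 of the 11 fits that left out an animal. Without db/m animal 2 the IP log2 fold change of Kcnh1 went from -4.59 to -3.14 (edgeR adjusted p = 0.171). Kcnh4 at chr11:100744186-100745341, a relative of it, had no RNA-seq read in any db/db animal and 5, 5, 4, 2 and 2 reads in the db/m animals. Its RNA-seq level was at least 7.6-fold higher in db/m, with 3 counts over the group as the floor (edgeR adjusted p = 0.00213). In IP it had 4 reads in db/db and 88 in db/m, of which db/m animals 1 and 2 gave 34 and 45 (25.2-fold, exact 95% interval 9.49 to 94.4, edgeR adjusted p = 0.0885). The authors' peak false discovery rate for Kcnh4 was 0.899.

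All 6 V-ATPase subunit genes had a well-read peak, and 0 of their 13 peaks passed the adjusted p in edgeR's quasi-likelihood test, in IP or RNA-seq. At an unadjusted p under 0.05 there were 1 higher and 1 lower in IP (15.4% together, all peaks 21.2%) and 3 higher and 1 lower in RNA-seq (30.8%, all peaks 24.5%). DESeq2 passed 0 in IP and 3 in RNA-seq, all of Atp6v0a4. Atp6v1e1, a stalk subunit of the pump, had 348 and 353 CPM in IP (-0.02) and Atp6v1g3, the stalk subunit of intercalated cells, 344 and 335 CPM (0.04). Atp6v1d and Atp6v1g1 gave log2 fold changes of 0.03 and 0.15 in IP in their most-read peaks. Atp6v0a4, the membrane subunit of intercalated cells, gave 0.22 at chr6:38086056-38088009 and 0.55 at chr6:38092439-38092763 in IP. Its RNA-seq log2 fold changes of 0.42 and 0.45 did not pass (edgeR adjusted p = 0.0617 and 0.0685). Without db/m animal 2 they were 0.54 and 0.63, in the same order, and passed (edgeR adjusted p = 0.009 and 0.00188). Atp6v1a, the catalytic subunit, lay at -0.67 in both IP (edgeR adjusted p = 0.185) and RNA-seq (edgeR adjusted p = 0.0891), over a peak of 24289 bases. With db/m animal 2, the highest of its group, left out, this was -0.31 in IP and -0.37 in RNA-seq. Atp6v1g3 and Atp6v0a4 were the only ones of 8 intercalated cell markers with a peak.

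**Figure D3:**
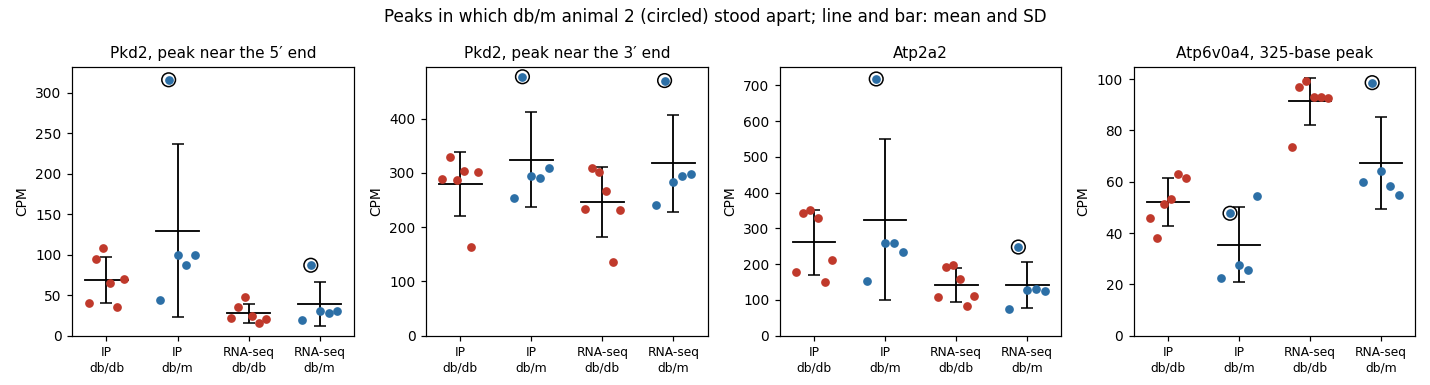
CPM of 4 peaks in IP and RNA-seq, with 1 point per animal, the mean and SD as line and bar, and db/m animal 2 circled, on linear axes from 0. In Atp2a2 IP the circled animal lies at 718 CPM while the other db/m animals lie between 153 and 259 CPM, and in the Pkd2 peak near the 5′ end at 316 CPM against 44.6 to 99.3 CPM.

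The calcium pump gene Atp2a2 and the polycystin 2 gene showed how far that animal reached. Atp2a2, the calcium pump of the endoplasmic reticulum, had 261 ± 90.4 CPM in db/db and 325 ± 224 CPM in db/m in IP at chr5:122500770-122502045, a log2 fold change of -0.31 (edgeR adjusted p = 0.644). Without db/m animal 2 it was 0.21. Atp2b1, a calcium pump of the plasma membrane, moved little, from -0.30 in IP (edgeR adjusted p = 0.413) to -0.25 without the animal. Pkd2, which encodes polycystin 2, had a peak near its 5′ end, chr5:104459810-104460110, with 69.0 ± 28.8 CPM and 129 ± 107 CPM in IP (-0.91, edgeR adjusted p = 0.182). Without the animal this was -0.26 in IP and 0.04 in RNA-seq. The peak near the 3′ end, chr5:104498826-104503600, gave -0.22 in IP (edgeR adjusted p = 0.564) and -0.36 in RNA-seq (edgeR adjusted p = 0.254), and without the animal -0.04 and -0.17. Ano8, an anoctamin that tethers membranes of the endoplasmic reticulum, gave -0.08 in IP at chr8:71480826-71481124 (edgeR adjusted p = 0.874) and 0.07 without the animal.

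Member peaks ranged widely in how strongly the IP took up their transcripts. Over all 22 libraries, the log2 ratio of the mean IP to the mean RNA-seq level is a description, since peaks were called on this enrichment. For the 60 well-read members its median was -0.26, with a range of -2.05 to 2.04, and 24 (40.0%) lay above 0. Over all well-read peaks the median was 0.10 and 55.4% lay above 0. The highest value was that of the 209-base Clcn2 peak. Scnn1a stood at 1.32, Ano8 at 1.75, the 5′ peak of Pkd2 at 1.56 and its 3′ peak at 0.11, so peaks of 1 gene could differ widely. In the fold enrichment that the authors deposited for each peak, the members had a median of 6.22 and a range of 1.42 to 211, beside a median of 5.09 over all peaks.

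**Figure D4:**
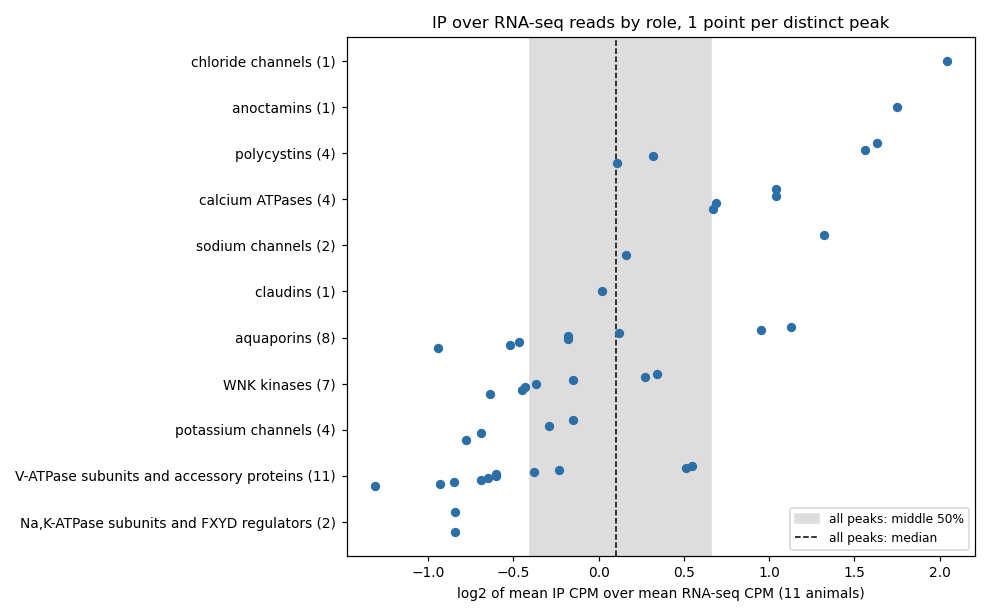
Log2 of mean IP CPM over mean RNA-seq CPM across the 11 animals, with 1 point for each of the same 45 distinct well-read member peaks, grouped by role with the number of peaks in brackets. The dashed line is the median of all well-read peaks (0.10) and the grey band runs from their lower to their upper quartile (-0.40 to 0.66); Clcn2 at 2.04 lies farthest right.

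Per length, the RNA-seq level of the members spanned a wide range. Wnk1 at its 271-base peak had 1490 CPM per 1000 bases of peak in db/m and 1310 in db/db, and Kcnj15 at its 210-base peak had 1380 and 1200. Aqp4 had 587 and 234, Aqp3 523 and 722, Scnn1a 316 and 409, and the 209-base Clcn2 peak 18.4 and 17.9, all as RNA-seq CPM per 1000 bases. Aqp2, at 189 in db/m, stood below Aqp4 there and above it in db/db. Long peaks, such as those of the V-ATPase stalk subunits and Atp6v1a (2.80 and 1.76), are low on this scale, and what share of them is intron was not analysed here.

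The 34 genes without a well-read peak were measured by few reads. Their 51 peaks averaged between 0.0909 and 4.82 RNA-seq reads per library. Kcnh4 averaged 1.64 reads and Cacnb3, a beta subunit of voltage-gated calcium channels, 1.45 reads. Kcna2, a delayed rectifier of axons, had 99 IP reads but 2 RNA-seq reads over all 11 animals, with 1.01 CPM in db/db and 0.997 CPM in db/m in IP. Trpm2, a cation channel opened by ADP-ribose, averaged at most 0.909 RNA-seq reads in its 3 peaks, and Fxyd5 at most 0.364 in its 2. The fitted differences of these genes rest on few reads.

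In length and position the member peaks were much like the rest, and both are given as a description. Their median length was 224.5 bases (all peaks 241.0), from 60 to 199472 bases, and 30 were longer than 1000 bases (25.4%, all peaks 30.1%). The middle of 41 member peaks lay in the last 10% of the gene (34.7%, all peaks 28.5%) and that of 16 in the first 10% (13.6%, all peaks 18.7%). Positions were taken from the extent of the gene in RefSeq GRCm38.p6. Peaks were not placed in exons, introns or UTRs. Another RefSeq gene overlapped 16 member peaks.

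Kidney ion transport genes outside the member families passed in both directions. From a list of 56 transporters, exchangers and regulators outside the member families, 22 had a peak, 55 peaks in all, of which those of 1 gene can overlap and share reads. In IP 11 passed downward in edgeR's quasi-likelihood test (20%, all peaks 3.38%), in Egf, Pdzk1, Slc34a1 and Slc9a3r1, and 0 upward, where 10 had an unadjusted p under 0.05 and DESeq2 passed 6. In RNA-seq 6 passed upward (10.9%, all peaks 5.34%), in Atp4a, Slc4a4 and Stk39, and 18 downward (32.7%, all peaks 5.93%), in the 4 genes above and Pth1r. Slc34a1, the phosphate cotransporter of the proximal tubule, fell by 0.97 in IP at chr13:55402685-55402989 (edgeR adjusted p = 0.0266) and by 1.05 in RNA-seq (edgeR adjusted p = 0.0141), on the log2 scale. Its IP value without db/m animal 2, -0.81, did not pass (edgeR adjusted p = 0.0531). Egf, a growth factor of the thick ascending limb and distal tubule, fell by 0.93 in IP at chr3:129712969-129716750 (edgeR adjusted p = 0.0139). Slc4a4, the basolateral bicarbonate cotransporter, rose by 0.53 in RNA-seq at chr5:89238246-89238455 (edgeR adjusted p = 0.00416). Its peaks outside this stretch did not pass in RNA-seq, at -0.01, 0.2 and 0.17 (edgeR adjusted p = 0.99, 0.628 and 0.672). Without db/m animal 2 the first of these stood at 0.92 and passed (edgeR adjusted p = 0.0243). The median log2 fold change of these 55 peaks was -0.00 in IP and -0.06 in RNA-seq. The 54 peaks of the 21 kidney pump, channel and aquaporin genes had medians of 0.17 and 0.09, with 6 passing upward in IP (11.1%, all peaks 3.07%). Downward in IP, 0 passed in edgeR, 4 had an unadjusted p under 0.05 (7.41%, all peaks 10.6%) and DESeq2 passed 1, that of Aqp4. In RNA-seq 8 passed upward (14.8%, all peaks 5.34%) and 1 downward, that of Aqp4 (1.85%, all peaks 5.93%). The lists were not tested against each other or against all peaks.

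Markers of tissues other than kidney also differed between animals, mostly in the IP libraries. The lung list, to which the member Cldn18 belongs, summed in IP to 50.5, 35.8, 34.7, 12.1, 0.223 and 0.206 CPM in db/db and at most 1.48 CPM in db/m, and 4 of its 9 peaks were called upward in IP. In RNA-seq of the same animals the list summed to 0 to 1.14 CPM in db/db and 0.327 to 1.27 CPM in db/m. Its most abundant gene in IP was Sftpc, the surfactant protein C gene. Cldn18 itself had 10 and 21 IP reads in its 2 peaks over all animals, and neither passed. The adipocyte list had peaks in 3 of its 9 genes, and its sum was almost all Lpl, a lipase that muscle and other tissues make too. It summed in IP to 2840, 3050, 15.9, 2700 and 14.0 CPM in db/m and to 4.08 to 321 CPM in db/db. Its RNA-seq sums were 67.7, 46.0, 16.7, 70.2 and 13 CPM in db/m and 4 to 6.67 CPM in db/db. The defining markers Adipoq and Plin1 were near 0 in IP, at 0.192 and 0.514 CPM in db/db and 0.211 and 0.195 CPM in db/m, and neither passed (edgeR adjusted p = 0.99 and 0.664). Aqp7 is known from adipocytes too. Its IP values were 9.97, 7.63, 14.4, 23.6 and 13.6 CPM in the db/m animals, in the order of the sums above. Whether such RNA takes part in the differences of the members was not tested.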

How the data were processed

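Kidney IP and RNA-seq libraries of 6 db/db and 5 db/m mice were analysed from 1 deposited table of peaks. The authors aligned cleaned reads, called ac4C peaks per genotype and deposited whole read counts per peak and library. The build is GRCm38 per the submitters' processing notes, while the aligner, peak caller and counter and their use of strand are not given in the sources used here. The table also holds a fold enrichment that the authors computed per peak as a ratio, repeated as a score, with a p-value and false discovery rate of the peak. Deposited columns of the authors' own comparison of genotypes (a log2 change and its p-values) were not used. IP and RNA-seq libraries of 1 title number were taken as 1 animal.

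Counts were tested with edgeR 4.0.16 (quasi-likelihood, TMM) in R 4.3.3, for IP and RNA-seq apart and for IP relative to RNA-seq with the animal as a block, with Benjamini-Hochberg adjustment over 9857 peaks, without a filter. The relative fit had an infinite prior df, so a peak's own spread had no weight in it. Single peaks were also tested by exact permutation, two-sided, on log2(CPM + 1). Per-sample means are CPM after TMM. Starts were counted from 0 in the table and are printed from 1. The fits were tested on simulated data. Alternatives were DESeq2 1.42.0, limma 3.58.1 on the log2 difference per animal, library sizes without TMM, a filter on low counts, 1 peak per overlapping group, the replicate number as a block, and each animal left out.

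Named peaks were those called in any fit, the most-read IP peak of each kidney gene, the most-read short peak of each role, and the 3 highest and 3 lowest IP to RNA-seq ratios. Results for some genes are not reported or drawn here, though counts over the members include them. Other peaks and the genes outside the member families were chosen after their values were seen. The members, gene lists and roles were chosen with earlier results of these data known.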

Additional observations from a re-analysis of the deposited data

Results flagged for a closer look

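Over the 34 distinct named peaks, 136 groups of animals were tested for 1 animal far from the rest, and 19 were marked, where chance gives about 1 in 20, or 6.8. In 11 of the 19 the animal was db/m animal 2. In IP it stood alone in Atp2a2 at 718 CPM (the other db/m animals 153 to 259), in the 5′ Pkd2 peak at 316 CPM (44.6 to 99.3) and in the 3′ Pkd2 peak at 477 CPM (253 to 308). In RNA-seq it stood alone in Aqp4 at 62.7 CPM, in the 5′ Pkd2 peak at 87.0 CPM (18.9 to 30.7), in the 3′ Pkd2 peak at 470 CPM (240 to 297) and in the Atp6v0a4 peaks at 85.4 CPM and 98.6 CPM. For Aqp4, Atp2a2, Atp6v0a4 and the 5′ Pkd2 peak, the log2 fold changes without this animal are given above beside the pooled ones.

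Among well-read peaks, other animals were marked in 3 groups. db/db animal 1 was low in RNA-seq of the 325-base Atp6v0a4 peak at 73.5 CPM (the other db/db animals 92.8 to 99.1). db/db animal 5 was high in RNA-seq of Kcnj15 at 387 CPM (262 to 294) and low in IP of the 3′ Pkd2 peak at 164 CPM (286 to 330).

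The rest had few reads. Atp2c1, a calcium and manganese pump of the Golgi, had 2.87 CPM in IP of db/db animal 4 (25 reads) and 3.18 CPM in db/m animal 2 (30 reads). Fxyd5, a regulator of the Na,K-ATPase, had 3.72 CPM in IP of db/db animal 3 (31 reads) and 0.111 CPM in db/m animal 5 (1 read). Kcnh1 had 0.112 CPM in IP of db/db animal 5 (1 read) and 2.76 CPM in db/m animal 2 (26 reads). Kcnma1, the large-conductance potassium channel, had 0.106 CPM in IP of db/m animal 2 (1 read) and 0.3 CPM in RNA-seq of db/db animal 2 (1 read).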

How the results depend on the processing

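In this paragraph, counts with an unadjusted p keep the fold threshold. The 4 member calls in IP became 9 without the fold threshold, 12 with an unadjusted p and 7 in DESeq2. DESeq2 added Aqp4 and Kcnh4 among others. With an animal left out the member calls in IP ran from 2 to 5. Aqp2 was called in IP under every alternative run. Clcn2 was not called in IP without TMM, and Kcnh1 was not with the filter on low counts. With 1 peak per overlapping group neither of these was called. Over all peaks, the 327 IP calls became 636, 823 with an unadjusted p and 214 with 1 peak per overlapping group (fewer peaks tested), and 276 to 411 with an animal left out. The 5 member calls in RNA-seq became 10 without the fold threshold and 9 with an unadjusted p, and stayed at 5 with an animal left out. The 389 over all peaks became 1111 and 697, and 332 to 480. IP relative to RNA-seq gave 0 member calls, 1 with an unadjusted p. Over all peaks its 2 calls became 235 with an unadjusted p, 0 in DESeq2, 0 with filterByExpr, 0 with limma on the difference per animal and 0 with no replicate block, and 1 to 5 with an animal left out. The cause was not tested.

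Of 967 alternative values of named peaks, 39 reversed, all of changes that had not passed. Without TMM, log2 fold changes were 0.02 for Ano8 IP, 0.04 for Aqp7 RNA-seq, 0.05 for Atp2b1 RNA-seq, 0.05 for Atp2c1 IP and 0.04 for Clcn2 RNA-seq. With an animal left out they ran from -0.15 to 0.07 for Ano8 IP, -0.16 to 0.03 for Aqp7 RNA-seq, -0.47 to 0.21 for Atp2a2 IP and -0.09 to 0.06 for Atp2b1 RNA-seq. They ran from -1.35 to 2.57 for Atp2c1 IP, -0.59 to 0.14 for Atp2c1 RNA-seq, -0.10 to 0.47 for Atp7b IP, -0.25 to 0.81 for Cacnb3 IP and -0.70 to 0.01 for Cacnb3 RNA-seq. They ran from -0.25 to 0.12 for Clcn2 RNA-seq and -0.72 to 0.04 for the 5′ Pkd2 peak in RNA-seq.

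The animal numbers name different animals in each genotype, and same-numbered animals did not deviate together at every number (correlations 0.201 to 0.449 for numbers 1 and 2, -0.348 to -0.0192 for numbers 3 to 5, the closest animal bearing the same number in 1 of 5 in IP and 2 of 5 in RNA-seq). The fit with the replicate number as a block also left out db/db animal 6, whose number no db/m animal bears. With both changes, Aqp2 and Aqp4 were among the calls in IP, while Clcn2 and Kcnh1 were not. In that fit the log2 fold change was 1.82 for Atp2c1 IP, -0.07 for Cacnb3 IP and 0.01 for Clcn2 RNA-seq. Depth limits the 58 member peaks under 10 RNA-seq reads most.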
